A study of Mus musculus with 24 samples.

Results

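The genes described here encode the aminoacyl-tRNA synthetases, the enzymes that load each amino acid onto its tRNA. They were chosen by symbol from a list of 36 genes, 20 for enzymes of the cytosol and 16, whose symbols end in 2, for enzymes of the mitochondrion. Of these 36 genes, 35 had a row among the 23364 genes of the count tables, 20 cytosolic and 15 mitochondrial. Mars2 was not analysed here. All 35 passed the filter on low counts that left 21456 genes, so no member was lost to it.

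The samples were RNA sequencing libraries of 3 blood cell populations from bone marrow, taken from C57BL/6 mice at 8 to 12 weeks of age. All were negative for lineage markers and Flt3 and positive for Kit, Sca-1 and CD150. They were split into MPP2 progenitors that carry both CD34 and CD48, MPP1 progenitors that carry CD34 without CD48, and haematopoietic stem cells (HSC) that carry neither. In each population KO libraries (n = 3) came from mice with loxP sites in both Mysm1 alleles and a tamoxifen-inducible Cre (CreERT2), given 8 injections of tamoxifen at 0.15 mg per gram over 16 days. Mysm1 encodes a histone H2A deubiquitinase, and the deletion removes its exon 3. Het libraries (n = 3) came from mice with 1 floxed and 1 wild-type allele that carried the same Cre and had the same tamoxifen, so these controls lost 1 copy of the gene. Sham libraries (n = 2) came from floxed mice given corn oil alone, for which the labels state no Cre. Cells of several mice, male and female, were pooled for each library, so p-values measure the spread between pools and not between animals.

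The 24 libraries held 18823971 to 53196624 counts each. Mysm1 was present in every library, at 76.7 to 138 CPM (counts scaled to the same library total). These counts cover the whole gene and not only exon 3, so they say little about the deletion. Cd48, the gene of the marker that separates MPP2, was at 13.8 to 56.9 CPM in MPP2 libraries and at 0 to 2.81 CPM in MPP1 and HSC libraries. Cd34, by which both MPP gates differ from HSC, separated less at the RNA level. It was at 149 to 272 CPM in MPP2 KO, 67.6 to 230 CPM in MPP2 Het and 51.5 to 104 CPM in MPP2 Sham libraries, at 118 to 215 CPM in MPP1 and at 44.1 to 106 CPM in HSC libraries, so that MPP2 Het and Sham overlapped HSC. Flt3, against which all cells were sorted, reached 98.0 CPM in an MPP2 Het library and was at 4.50 to 27.1 CPM in the others. Ly6a, which encodes Sca-1, was low although all cells were sorted for the protein, and lowest in MPP2 within each genotype. It was at 4.66 to 8.48 CPM in MPP2 KO, 1.06 to 5.04 CPM in MPP2 Het and 0.825 to 1.57 CPM in MPP2 Sham libraries. MPP1 libraries were at 6.87 to 18.6 CPM and HSC libraries at 16.8 to 26.7 CPM. HSC KO 1 and HSC Het 2_3 had the fewest genes detected, 15740 and 15932, against up to 21150 in other libraries.

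Each synthetase joins its own amino acid to the matching tRNA, and the charged tRNA then brings the amino acid to the ribosome. Cytosolic enzymes serve the translation of nuclear mRNAs, and several of them sit with scaffold proteins in the multisynthetase complex. Mitochondrial enzymes are encoded by separate nuclear genes, imported, and used to translate the few mRNAs of the mitochondrial genome. Gars and Kars are exceptions, since each of these genes gives both the cytosolic and the mitochondrial enzyme. Shortage of an amino acid leaves tRNA uncharged, which activates the kinase GCN2 and the transcription factor ATF4, and cytosolic synthetase genes are well-known targets of ATF4. Blood stem cells are known for a low rate of protein synthesis, and progenitors for a higher one.

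Sequences are shown first. They were chosen for the letters they hold and not for how far a gene moved between populations. Promoters were taken from RefSeq on the mouse assembly GRCm38.p6, as 120 bases before to 30 bases after each gene's start. Capitals mark the letters TGATGNAA on either strand, the core of the element that ATF4 binds together with a C/EBP protein. The 5 members whose promoters held them are printed 5′ to 3′ in the direction of the gene.
Aars (chr8:111033722-111033871, plus strand): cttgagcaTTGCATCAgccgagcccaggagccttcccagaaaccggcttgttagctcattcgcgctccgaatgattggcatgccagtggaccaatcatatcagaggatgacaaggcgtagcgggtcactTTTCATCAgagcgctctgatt
Gars (chr6:55037881-55038030, plus strand): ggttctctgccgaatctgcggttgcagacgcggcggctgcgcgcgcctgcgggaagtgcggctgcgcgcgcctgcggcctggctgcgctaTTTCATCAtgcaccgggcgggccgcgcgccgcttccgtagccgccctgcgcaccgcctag
Tars (chr15:11399629-11399778, minus strand): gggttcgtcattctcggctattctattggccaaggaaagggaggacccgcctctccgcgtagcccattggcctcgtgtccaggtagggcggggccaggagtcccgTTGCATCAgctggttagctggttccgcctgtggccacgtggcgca
Yars (chr4:129189783-129189932, plus strand): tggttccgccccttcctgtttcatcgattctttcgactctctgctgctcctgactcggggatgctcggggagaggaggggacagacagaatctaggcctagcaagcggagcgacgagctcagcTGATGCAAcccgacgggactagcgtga
Iars (chr13:49682010-49682159, plus strand): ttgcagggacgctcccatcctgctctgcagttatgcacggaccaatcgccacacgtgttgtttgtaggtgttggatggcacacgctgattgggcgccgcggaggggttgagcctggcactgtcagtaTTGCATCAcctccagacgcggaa
Aars held the letters at 2 places and the others at 1 place each. Over windows of 300 bases, 3.97% of 32851 RefSeq promoters held them. Among members with a RefSeq promoter they were found in 5 of 27, which were 5 of 13 cytosolic and 0 of 14 mitochondrial genes. The letters CACGTG, the E-box that MYC binds, were held by 7.15% of all promoters and by 5 of 27 members, namely Iars, Aars, Farsb, Tars and Ears2. A match describes the letters in the window and does not show that a factor binds there. Lars, Rars, Cars, Hars, Nars, Vars, Wars, Hars2 and Pars2 had no promoter entry.

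Per kilobase, most cytosolic genes lay above most mitochondrial ones. With the gene lengths deposited beside the counts, whose source is not stated, the 20 cytosolic genes had a median of 36.9 CPM per kb (each gene at its median over 24 libraries) and the 15 mitochondrial genes of 6.70 CPM per kb. With the summed exon lengths of the mm9 annotation instead, a choice made after the data were seen, the medians were 34.1 and 7.08 CPM per kb. Cars, the cysteine enzyme, was the lowest cytosolic gene with either length, at 6.25 CPM per kb (deposited) and 8.32 CPM per kb (annotated). The highest cytosolic gene depended on the length. It was Eprs, the fused glutamate and proline enzyme, with the deposited length (103 CPM per kb, against 82.0 for the aspartate enzyme Dars), and Dars with the annotated one (95.6 CPM per kb, against 69.6 for Eprs). Lars2 was the highest mitochondrial gene with either length, at 45.5 CPM per kb, while Iars2 was at 38.8 CPM per kb with the deposited and 15.5 CPM per kb with the annotated length. Within a gene the CPM of the highest library was 1.97 to 4.19 times that of the lowest among the cytosolic members, and 1.75 to 4.91 times among the mitochondrial members without Lars2, which spanned 20.3 times.

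The clearest difference lay between populations. In Het mice 20 of 35 synthetase genes rose in MPP2 against HSC and 0 fell, by edgeR's quasi-likelihood test with Benjamini-Hochberg adjustment over all genes tested. They were 15 of 20 cytosolic and 5 of 15 mitochondrial genes. Most mitochondrial members had lower CPM than most cytosolic ones, so these counts were not reached at equal precision. In the same comparison 9.59% of all genes tested rose, and 19.5% of the 9833 genes whose mean level was at least that of the lowest member. These 9833 genes are called genes at a similar level below. The cut is only a floor, at 8.91 CPM, and most cytosolic members lie far above it. The median log2 change was 0.55 over the 35 members (0.62 cytosolic, 0.47 mitochondrial) and -0.01 over all genes. It was above 0 for 33 of 35 members, against 48.7% of all genes and 55.5% of genes at that level. In bulk samples fewer cells of a type and less RNA per cell cannot be told apart.

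**Figure D1:**
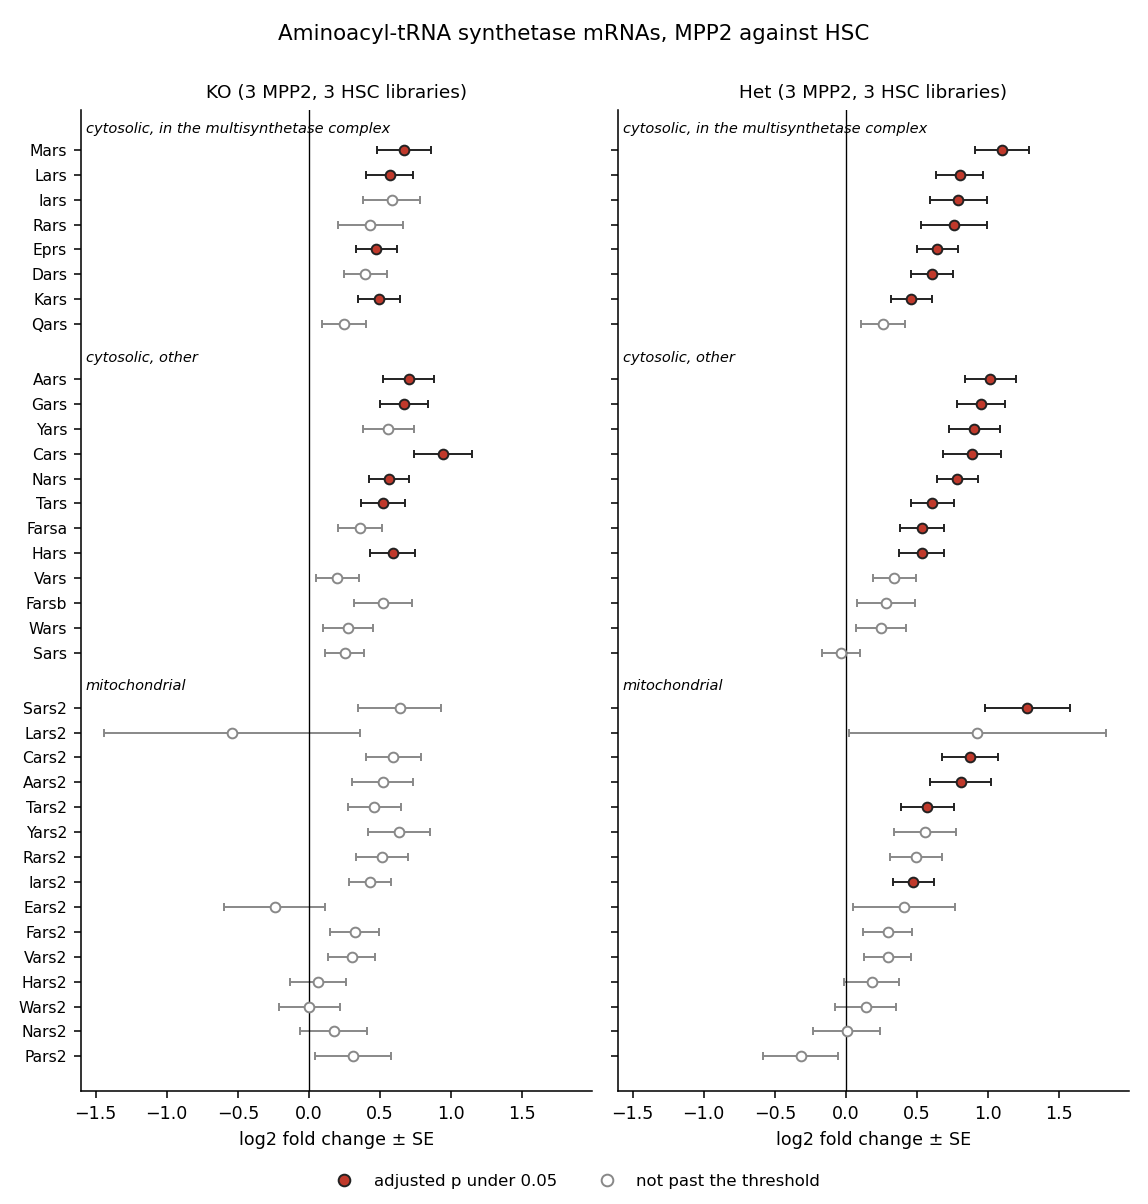
Log2 change (x axis, bars show the approximate SE) of the 35 synthetase genes (y axis) in MPP2 against HSC, in KO libraries in the left panel and Het libraries in the right panel, with red points at an adjusted p under 0.05. The 20 red points in Het libraries and the 10 red points in KO libraries all lie to the right of 0.

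Mars, Aars and Gars, the methionine, alanine and glycine enzymes, had the smallest adjusted p. Mars (chr10:126733277-126748842 in mm9, minus strand) was at 136, 120 and 138 CPM in MPP2 Het libraries, against 62.7, 60.7 and 60.5 CPM in HSC Het libraries. Aars (chr8:113557044-113581564, plus strand) was at 152, 114 and 140 CPM in MPP2 Het libraries, against 76.4, 47.4 and 77.4 CPM in HSC Het libraries. Every MPP2 library of Het mice lay above every HSC library for both genes. Gars (chr6:54987995-55029498, plus strand) was at 206, 168 and 195 CPM in MPP2 Het libraries and at 97.7, 89.9 and 107 CPM in HSC Het libraries, again without overlap. The log2 change was 1.10 ± 0.19 for Mars (SE, adjusted p = 0.000105), 1.01 ± 0.18 for Aars (adjusted p = 0.000131) and 0.95 ± 0.17 for Gars (adjusted p = 0.000152).

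Nars, the asparagine enzyme, was the fourth of the cytosolic genes by adjusted p. It averaged 210 ± 17.5 CPM in MPP2 Het libraries and 122 ± 18.9 CPM in HSC Het libraries (SD, n = 3 each), a log2 change of 0.78 ± 0.14 (adjusted p = 0.00019). The other 11 cytosolic genes that rose were Yars, Lars, Eprs, Cars, Dars, Tars, Iars, Farsa, Hars, Rars and Kars, with log2 changes of 0.46 for Kars, the lysine enzyme, to 0.90 for Yars, the tyrosine enzyme. Members of the multisynthetase complex (Lars, Mars, Iars, Eprs, Dars, Rars, Qars, Kars) rose in 7 of 8 cases, all but Qars, the glutamine enzyme. Of the other 12 cytosolic genes 8 rose. All 5 genes printed with TGATGNAA in the promoter were among those that rose, as were 5 of the 8 other cytosolic genes with a promoter entry.

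The cytosolic genes that did not pass were Vars, Qars, Wars, Farsb and Sars. Sars, the serine enzyme, was at 143, 126 and 145 CPM in MPP2 Het libraries and at 122, 141 and 160 CPM in HSC Het libraries, which overlap. Its log2 change was -0.03 (adjusted p = 0.93). Vars had a log2 change of 0.34 (adjusted p = 0.128), Farsb (the beta subunit of the phenylalanine enzyme) of 0.28, Qars of 0.26 and Wars (tryptophan) of 0.25. The alpha subunit, Farsa, rose by 0.54 (adjusted p = 0.0127).

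Among mitochondrial genes Cars2, Sars2, Aars2 and Iars2 led the 5 that rose in MPP2 against HSC in Het mice. Sars2 (chr7:29527010-29538871 in mm9, plus strand), the serine enzyme, was at 11.3, 11.5 and 10.5 CPM in MPP2 Het libraries, against 3.89, 3.26 and 6.56 CPM in HSC Het libraries. Cars2 (chr8:11514021-11550771, minus strand), the cysteine enzyme, was at 25.2, 18.7 and 24 CPM in MPP2 Het libraries, against 11.2, 13.2 and 12.7 CPM in HSC Het libraries. The MPP2 libraries were the higher ones without overlap for both genes. The log2 change was 1.27 ± 0.30 for Sars2 (adjusted p = 0.00231), the largest of the 20, and 0.87 ± 0.19 for Cars2 (adjusted p = 0.00152). Aars2 averaged 23.4 ± 2.32 CPM in MPP2 Het libraries and 13.4 ± 2.07 CPM in HSC Het libraries (SD, n = 3 each), a log2 change of 0.81 ± 0.22 (adjusted p = 0.0075).

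Iars2 (isoleucine) changed by 0.47 ± 0.15 (adjusted p = 0.0215) and Tars2 (threonine) by 0.57 (adjusted p = 0.03). The exons of Iars2 share 2018 bases with those of Rab3gap2 on the other strand, and whether counting used strand is not given in the sources used here, so its value is uncertain. The same holds on a smaller scale for other members that share bases of exon with a gene on the opposite strand. These include Hars and Hars2 (195 bases with each other), Vars (304), Nars2 (284), Farsb (265) and Cars (211). Rars2 (log2 change 0.49, adjusted p = 0.0609) and Yars2 (0.55, adjusted p = 0.0793) missed the threshold. The other mitochondrial genes without Lars2 had log2 changes from -0.32 for Pars2 to 0.41 for Ears2.

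For 15 amino acids a gene of each kind was measured, and for 13 of 15 the cytosolic gene had the larger log2 change in MPP2 against HSC in Het mice. Eprs stood for both glutamate and proline, and Farsa, not Farsb, for phenylalanine. The exceptions were leucine, through Lars2, and serine, where Sars had -0.03 and Sars2 had 1.27. For cysteine the changes were nearly equal, at 0.89 for Cars and 0.87 for Cars2, as for threonine (0.61 and 0.57) and valine (0.34 and 0.29). With Farsb instead of Farsa phenylalanine would be a further exception, since Fars2 had 0.29. In KO mice the cytosolic gene had the larger log2 change for 11 of 15. For MPP2 against MPP1 it was 8 of 15 in Het and 10 of 15 in KO mice. For MPP1 against HSC it was 13 of 15 in Het and 9 of 15 in KO mice. By catalytic fold, with the fused Eprs counted in class I alone, 9 of 18 genes of class I and 11 of 17 genes of class II rose in Het mice.

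KO mice gave the same contrast in libraries that shared no sample with it. There 10 of 35 genes rose in MPP2 against HSC and 0 fell, against 3.39% of all genes and 7.23% of genes at a similar level, and all 10 were cytosolic. They were Cars, Gars, Nars, Aars, Hars, Mars, Lars, Tars, Kars and Eprs. The median log2 change was 0.47 over the members and -0.17 over all genes, and 33 of 35 were above 0, against 40.8% of all genes and 56.4% at a similar level. Cars (chr7:150743135-150785995 in mm9, minus strand) was at 58.7, 49.7 and 62.6 CPM in MPP2 KO libraries, against 38.0, 26.4 and 24.5 CPM in HSC KO libraries, without overlap. Its log2 change was 0.94 ± 0.21 (adjusted p = 0.00599).

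Gars was at 220, 196 and 219 CPM in MPP2 KO libraries, against 164, 112 and 122 CPM in HSC KO libraries. HSC KO 1 was the highest of the HSC KO libraries for Gars, as for 27 of 35 members. The log2 change was 0.67 for Gars (adjusted p = 0.0151), 0.56 for Nars (adjusted p = 0.0157) and 0.70 for Aars (adjusted p = 0.0159). Among mitochondrial genes Cars2 came nearest to the threshold, with a log2 change of 0.59 (adjusted p = 0.065), followed by Iars2 at 0.43 (adjusted p = 0.0812). Samples with the same number deviated together in this comparison, and with the number as a block 16 members rose, as they did with DESeq2. Iars2 was among them with the block (adjusted p = 0.038) and with DESeq2 (adjusted p = 0.0267), and Cars2 with DESeq2 (adjusted p = 0.00865). The edgeR count without the block ran from 0 to 14 when single libraries were left out. It was 0 without HSC KO 4, 1 without HSC KO 2_3, MPP2 KO 1 or MPP2 KO 4.

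The Sham libraries, with 2 in each population, showed the same order of means. The mean CPM was highest in MPP2 for 33 of 35 genes in KO mice, 33 of 35 in Het mice and 31 of 35 in Sham mice. All MPP2 libraries lay above all HSC libraries for 25 genes in KO mice, 23 in Het mice and 32 in Sham mice. Among all genes tested the shares were 12.8%, 16.2% and 26.4% in the same order, the last over only 2 libraries a group. From high to low the means ran in the order MPP2, MPP1, HSC for 31 genes in KO, 26 in Het and 28 in Sham mice.

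**Figure D2:**
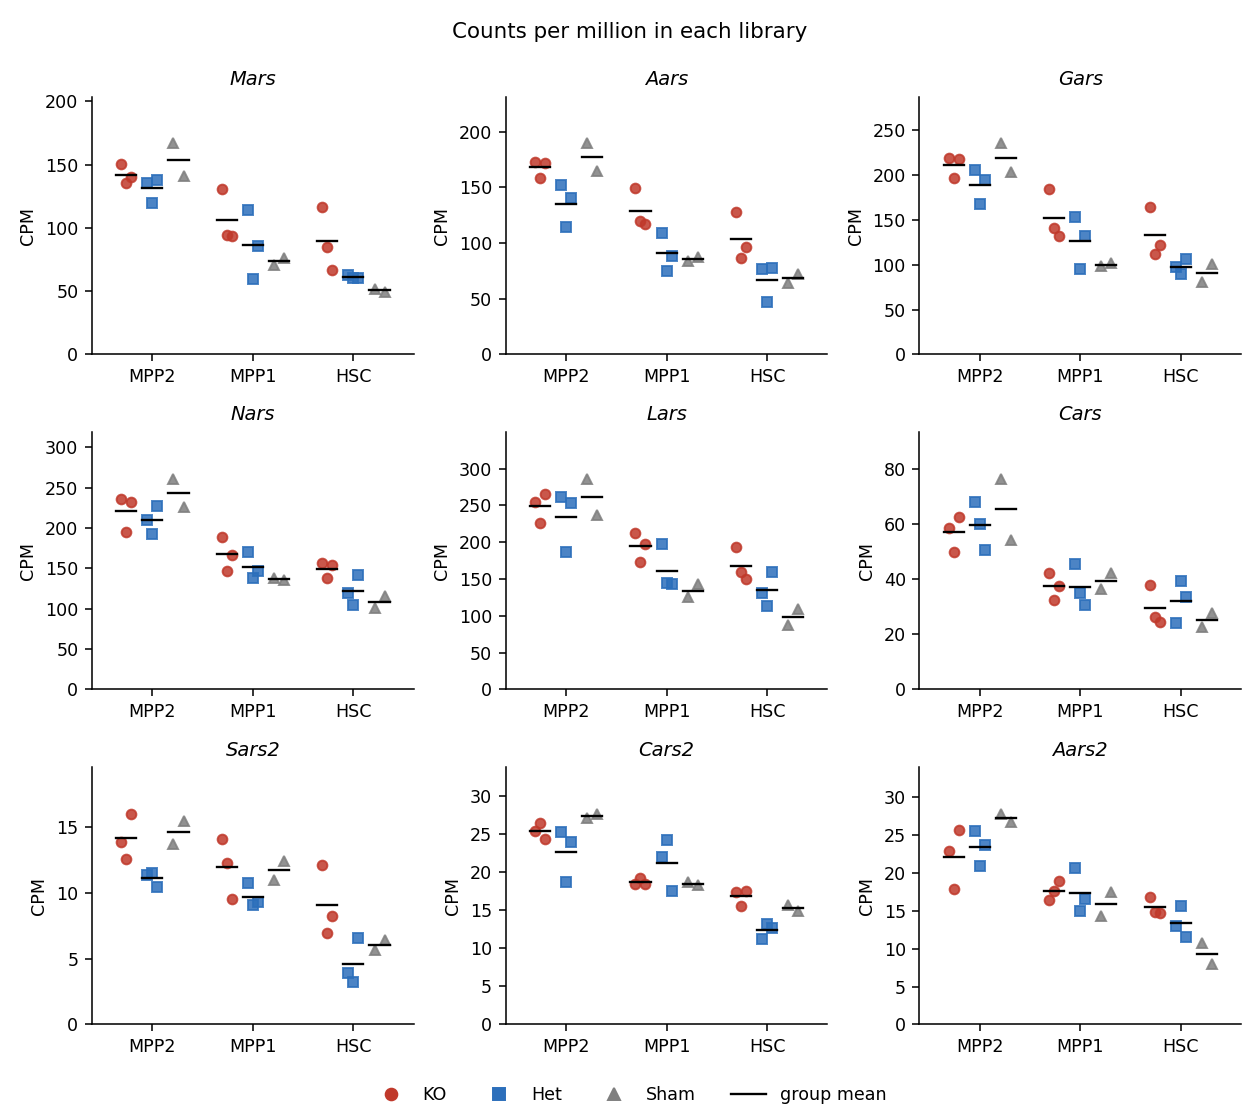
CPM (y axis) of 9 synthetase genes in each library, with MPP2, MPP1 and HSC on the x axis, KO libraries as red circles, Het libraries as blue squares, Sham libraries as grey triangles and bars at the group means. Mars lies at 120 to 167 CPM in the MPP2 libraries and at 49.6 to 117 CPM in the HSC libraries.

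MPP1 lay between the other populations, and nearer to HSC. In MPP1 against HSC 0 of 35 members passed in Het mice by edgeR, where 0.014% of all genes rose. In that comparison 7 members had an unadjusted p under 0.05, all higher in MPP1, against 6.62% of all genes, and DESeq2 called 2. The largest of these differences was that of Sars2, at 10.7, 9.09 and 9.26 CPM in MPP1 Het libraries and at 3.89, 3.26 and 6.56 CPM in HSC Het libraries, with a log2 difference of 1.08 ± 0.30 (adjusted p = 0.231). Cars2 had a log2 difference of 0.78 ± 0.19 (adjusted p = 0.189), Mars of 0.50 and Aars of 0.44. In KO mice 0 of 35 members passed in edgeR, 0 had an unadjusted p under 0.05 and DESeq2 called 0, and 0% of all genes were called by edgeR. Aars (0.32), Cars (0.33), Iars2 (0.22) and Sars2 (0.39) had the smallest p of their compartments there, each with an adjusted p of 1.

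In MPP2 against MPP1 in Het mice 7 of 35 members rose, against 3.23% of all genes. They were Tars, Gars, Cars, Nars, Aars, Lars and Mars, all cytosolic, and all 35 members had a log2 difference above 0, against 42.9% of all genes and 56.7% at a similar level. Gars was at 206, 168 and 195 CPM in MPP2 Het libraries, against 153, 94.9 and 132 CPM in MPP1 Het libraries, a log2 change of 0.58 (adjusted p = 0.0308). Tars changed by 0.54 (adjusted p = 0.0275) and Cars by 0.68 (adjusted p = 0.0375). Among mitochondrial genes Tars2, at 0.56 (adjusted p = 0.0636), and Iars2, at 0.39 (adjusted p = 0.116), had the smallest p without passing. This comparison shares its MPP2 libraries with MPP2 against HSC.

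The count of 7 in Het mice depended on single libraries. It was 0 without MPP1 Het 2_3, MPP1 Het 4 or MPP2 Het 1, 1 without MPP2 Het 4 and 13 without MPP1 Het 1, the library with the highest value of the 3 for 25 of 35 members. In KO mice 0 of 35 members passed in MPP2 against MPP1 by edgeR, where 0.2% of all genes rose. There 15 had an unadjusted p under 0.05, all higher in MPP2, against 5.15% of all genes. DESeq2 called 2 and the fit with the sample number as a block called 1. Cars (log2 difference 0.61, adjusted p = 0.178) and Hars (0.46, adjusted p = 0.19) had the smallest p in KO mice, followed by Cars2 (0.44, adjusted p = 0.391) and Tars2 (0.42, adjusted p = 0.4) among mitochondrial genes.

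Loss of Mysm1 was tested with KO against Het, since both had tamoxifen. In HSC 0 of 35 members passed by edgeR, where 0.322% of all genes rose. At an unadjusted p under 0.05 there were 12 members, all higher in KO, 10 of 20 cytosolic and 2 of 15 mitochondrial, against 9.75% of all genes that were higher at that p. The log2 difference was above 0 for 29 of 35 members, against 51.9% of all genes and 60.3% of genes at a similar level, with a median of 0.29 over members and 0.03 over all genes. KO libraries lay above all Het libraries for 10 members, against 7.16% of all genes and 12.7% at a similar level. With HSC KO 1 and HSC Het 2_3 left out, the libraries with the fewest genes detected, 1 member had an unadjusted p under 0.05 and 0 passed by edgeR.

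Aars had the smallest p in HSC. It was at 128, 86.1 and 95.9 CPM in HSC KO libraries and at 76.4, 47.4 and 77.4 CPM in HSC Het libraries, without overlap. The log2 difference was 0.62 ± 0.18 (adjusted p = 0.0886), and 0.24 without HSC KO 1 and HSC Het 2_3 (adjusted p = 0.82). Sars2 was at 12.1, 6.94 and 8.21 CPM in HSC KO libraries and at 3.89, 3.26 and 6.56 CPM in HSC Het libraries, a difference of 0.99 ± 0.30 (adjusted p = 0.114). These groups do not overlap either, by a gap that is small beside the spread within each. Mars was at 117, 84.8 and 66.3 CPM in HSC KO libraries and at 62.7, 60.7 and 60.5 CPM in HSC Het libraries (difference 0.54 ± 0.19, adjusted p = 0.174).

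Cars2 was at 17.4, 15.5 and 17.5 CPM in HSC KO libraries and at 11.2, 13.2 and 12.7 CPM in HSC Het libraries (difference 0.44 ± 0.19, adjusted p = 0.29). For all 4 genes the KO libraries lay above the Het libraries, and none passed. Other settings passed some genes. With the sample number as a block edgeR called 2, among them Aars (adjusted p = 0.00805). Whether the numbers pair these samples is undecided. DESeq2 called Sars2 alone (adjusted p = 0.0294), edgeR without HSC Het 4 called Sars2 alone (adjusted p = 0.0307), and limma on the deposited normalized table called Aars alone (adjusted p = 0.0468).

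**Figure D3:**
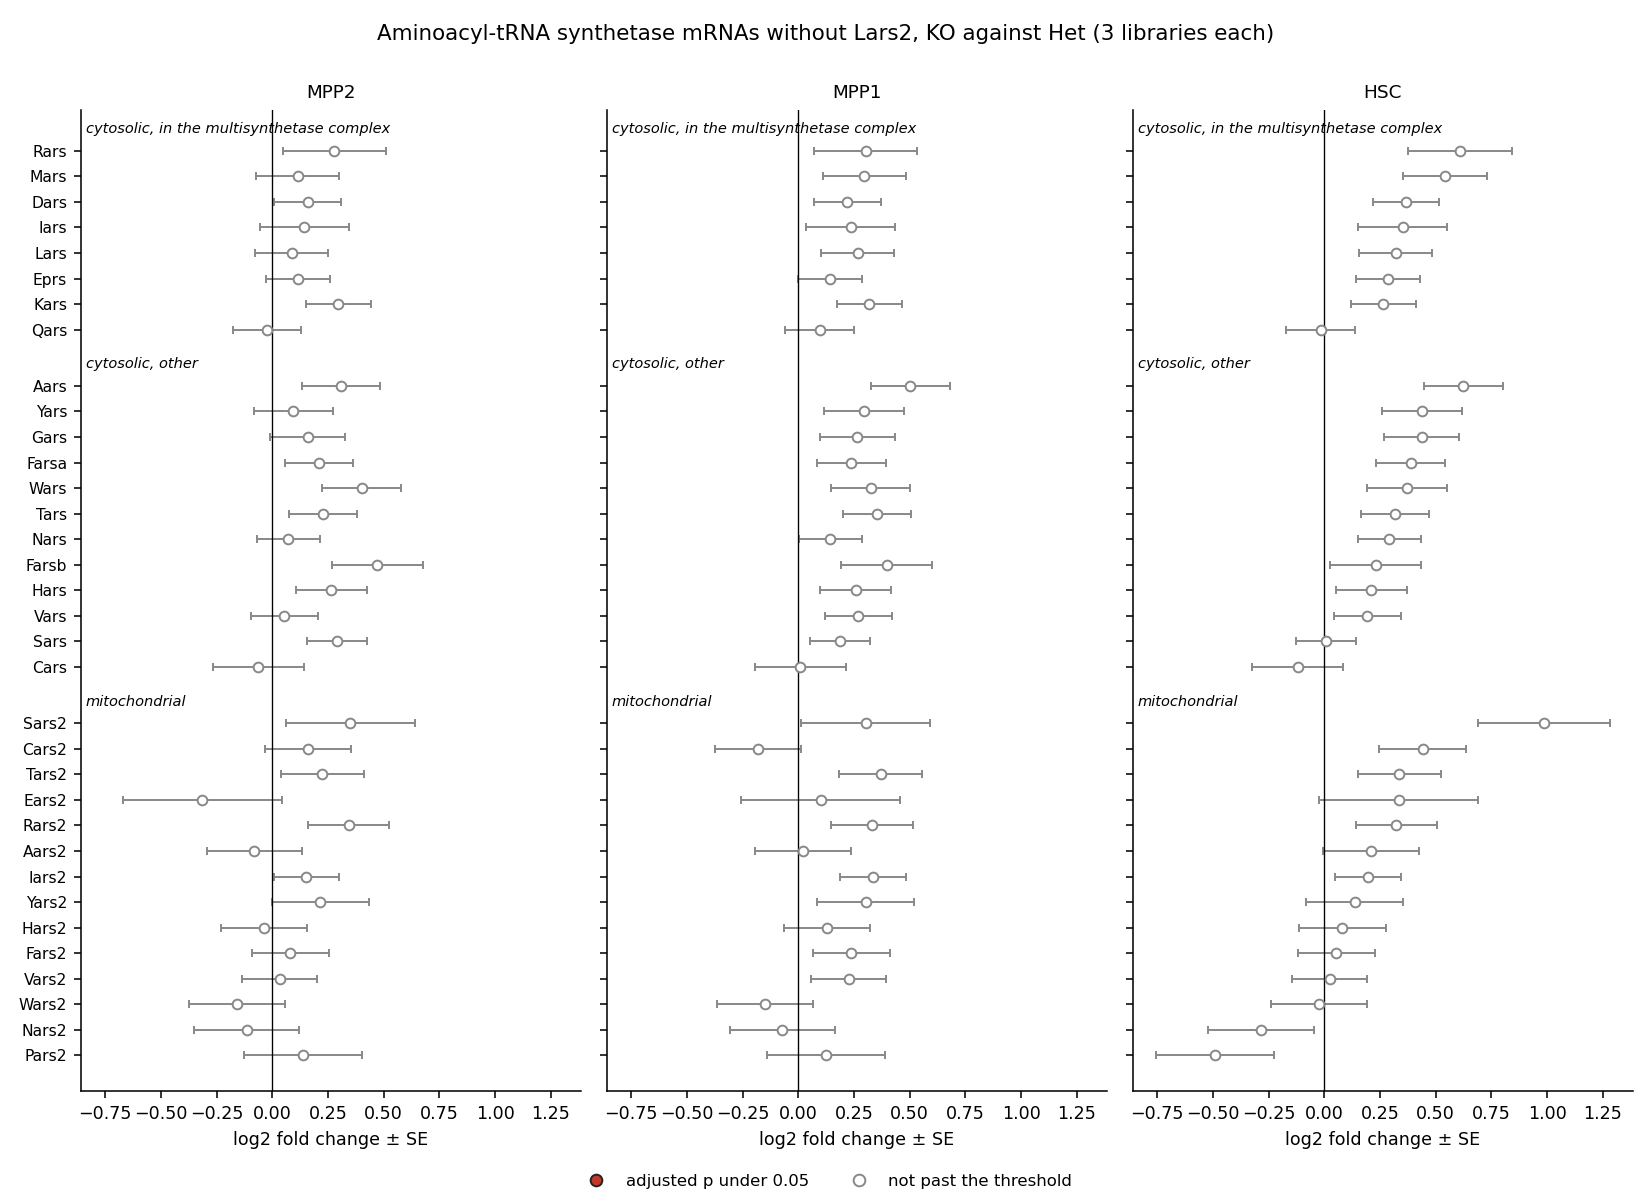
Log2 difference (x axis, bars show the approximate SE) between KO and Het libraries for 34 synthetase genes without Lars2 (y axis), in MPP2, MPP1 and HSC panels from left to right. No point passed an adjusted p of 0.05, and most points lie to the right of 0 in each panel.

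In MPP1 0 of 35 members passed in KO against Het by edgeR or DESeq2, where 0.0326% of all genes rose in edgeR. At an unadjusted p under 0.05 there were 4, Aars, Tars, Iars2 and Kars, all higher in KO, against 5.2% of all genes. Aars was at 149, 120 and 117 CPM in MPP1 KO libraries and at 109, 75.1 and 87.9 CPM in MPP1 Het libraries, a log2 difference of 0.50 ± 0.18 (adjusted p = 0.422). Tars differed by 0.35 (adjusted p = 0.545), Iars2 by 0.33 (adjusted p = 0.552) and Tars2 by 0.37 (adjusted p = 0.574). Of the members 31 of 35 were above 0, against 43.7% of all genes and 68.8% at a similar level.

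In MPP2 0 of 35 members passed in KO against Het by edgeR or DESeq2, where 0.378% of all genes rose in edgeR, and 4 had an unadjusted p under 0.05, of which 3 (Farsb, Wars and Sars) were higher in KO and Lars2 lower, against 4.06% of all genes that were higher. The log2 difference was above 0 for 27 of 35 members, against 44.9% of all genes and 64.9% at a similar level. Farsb was at 73.4, 51.4 and 62.7 CPM in MPP2 KO libraries and at 53.2, 41.1 and 40.9 CPM in MPP2 Het libraries (difference 0.47 ± 0.20, adjusted p = 0.769), which overlap. Wars differed by 0.40 (adjusted p = 0.819) and Rars2 by 0.34 (adjusted p = 0.932).

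Whether the KO difference changed between populations was tested as an interaction. In MPP2 minus HSC 0 members passed by edgeR or DESeq2, where edgeR called 0.0326% of all genes, and 0 had an unadjusted p under 0.05, with Mars at -0.43, Sars at 0.28, Pars2 at 0.63 and Sars2 at -0.64. In MPP1 minus HSC 0 members passed by edgeR or DESeq2, and 0% of all genes by edgeR. A single member had an unadjusted p under 0.05, against 4.87% of all genes, namely Cars2 at -0.62 (unadjusted p = 0.03, adjusted p = 0.988). Sars2 was at -0.69, Rars, the arginine enzyme, at -0.31 and Sars at 0.18, each with an adjusted p of 1.

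Against Sham, which shares the KO libraries with the comparison above, 2 of 35 members rose in HSC, where 1.9% of all genes and 4.07% of genes at a similar level rose. Lars, the leucine enzyme, was at 194, 160 and 150 CPM in HSC KO libraries, against 88.1 and 109 CPM in HSC Sham libraries. Its log2 change was 0.77 ± 0.19 (adjusted p = 0.0255). Mars was at 117, 84.8 and 66.3 CPM in HSC KO libraries, against 51.6 and 49.6 CPM in HSC Sham libraries, a log2 change of 0.82 ± 0.22 (adjusted p = 0.0369). Neither gene overlapped between the groups. Among mitochondrial genes Aars2 (0.72, adjusted p = 0.11) and Iars2 (0.32, adjusted p = 0.379) had the smallest p.

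The log2 difference from Sham in HSC was above 0 for 32 of 35 members, against 53.3% of all genes and 65.6% at a similar level, with a median of 0.40, and 17 members had an unadjusted p under 0.05, all higher, against 11.2% of all genes. The count of 2 was 0 without HSC KO 1, HSC Sham 2_3 or HSC Sham 4, where a lone Sham library is assumed to vary like the other groups. DESeq2 called 7, and edgeR without the filter on low counts called 0. In MPP1 0 of 35 passed in KO against Sham by edgeR or DESeq2, where 0.0792% of all genes rose in edgeR. There 15 had an unadjusted p under 0.05, all higher, against 7.1% of all genes, and Gars (0.61, adjusted p = 0.231) and Tars (0.54, adjusted p = 0.244) had the smallest p. Iars2 (0.47, adjusted p = 0.278) and Yars2 (0.53, adjusted p = 0.454) followed among mitochondrial genes.

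In MPP2 the direction against Sham was the other one, without any gene that passed. Here 3 of 35 members had a log2 difference above 0 in KO against Sham, against 59.1% of all genes and 51.1% at a similar level. None had an unadjusted p under 0.05, and edgeR and DESeq2 called 0, where edgeR called 0.629% of all genes. The smallest p were those of Qars (-0.35, adjusted p = 0.881) and Farsa (-0.25, adjusted p = 1) in the cytosol and Hars2 (-0.37) and Vars2 (-0.31) in the mitochondrion. Het against Sham in MPP2, which shares the Sham libraries, also had 3 of 35 members above 0, against 58.3% of all genes and 35.2% at a similar level, with a median of -0.23. In it 7 members had an unadjusted p under 0.05, against 5.32% of all genes, and 0 members and 0% of all genes passed by edgeR or DESeq2. Sars was at 143, 126 and 145 CPM in MPP2 Het libraries and at 204 and 180 CPM in MPP2 Sham libraries (difference -0.48 ± 0.15, adjusted p = 0.773), without overlap. Farsa differed by -0.46, Iars2 by -0.33 and Lars2 by 2.45, each with an adjusted p of 0.773. Het libraries lay below both Sham libraries for 16 members, against 11.9% of all genes. MPP2 Sham 2_3 was the higher Sham library of this population for 32 of 35 members, and the highest of all 24 libraries for 22 of 35.

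Het against Sham also had 0 members that passed in HSC and in MPP1, by edgeR or DESeq2, where edgeR called 0% of all genes in either. At an unadjusted p under 0.05 there were 5 in HSC, all higher in Het, against 3.88% of all genes, and 0 in MPP1. In HSC these were Pars2, with a log2 difference of 0.76 (adjusted p = 0.714), Nars2 at 0.58, Aars2 at 0.52, Lars at 0.45 and Hars at 0.42, the last 4 with an adjusted p of 0.718 each. In MPP1 the smallest p were those of Nars2 (0.52), Gars (0.34), Dars (0.24) and Vars2 (-0.21), each with an adjusted p of 1. The contrast of KO against Sham in MPP2 minus the same in HSC was added after the data were seen. It was above 0 for 0 of 35 members, against 51.7% of all genes and 36.2% at a similar level, and 17 had an unadjusted p under 0.05, against 11.7% of all genes. By edgeR 0 members and 0.0513% of all genes passed, while DESeq2 called 1 member. The histidine enzyme Hars was at -0.84 ± 0.25 (adjusted p = 0.165), Farsa at -0.80 (adjusted p = 0.165), Aars2 at -1.03 (adjusted p = 0.204) and Hars2 at -0.68 (adjusted p = 0.379).

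Lars2, the mitochondrial leucine enzyme, varied unlike the other members. It was at 104, 128 and 129 CPM in MPP2 KO libraries, at 207, 2119 and 111 CPM in MPP2 Het libraries and at 166 and 132 CPM in MPP2 Sham libraries. In HSC it was at 146, 177 and 202 CPM in KO libraries, at 157, 951 and 176 CPM in Het libraries and at 300 and 108 CPM in Sham libraries. The high values were those of MPP2 Het 2_3, HSC Het 2_3 and MPP1 Sham 4, the last at 934 CPM, and in each MPP2 and HSC group the other libraries were at 300 CPM or below. In MPP1 it was at 109, 359 and 167 CPM in KO libraries, at 338, 458 and 213 CPM in Het libraries and at 504 and 934 CPM in Sham libraries, so both Sham libraries lay above all others of that population. In KO against Het in MPP2 the log2 difference was -2.75 ± 0.96 (adjusted p = 0.563), and it was -0.40 without MPP2 Het 2_3 (adjusted p = 1).

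The summed CPM of 13 neutrophil markers was 3550 CPM in MPP2 Het 2_3 and 57.9 to 1201 CPM in the other libraries, and its part in the Lars2 value was not tested. Of the other libraries with high Lars2, HSC Het 2_3 had a neutrophil sum of 601 CPM, and MPP1 Sham 4 had the lowest of all, 57.9 CPM. Lars, the cytosolic leucine enzyme, was at 262, 186 and 254 CPM in the MPP2 Het libraries, where Het 2_3 was the lowest of the 3.

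**Figure D4:**
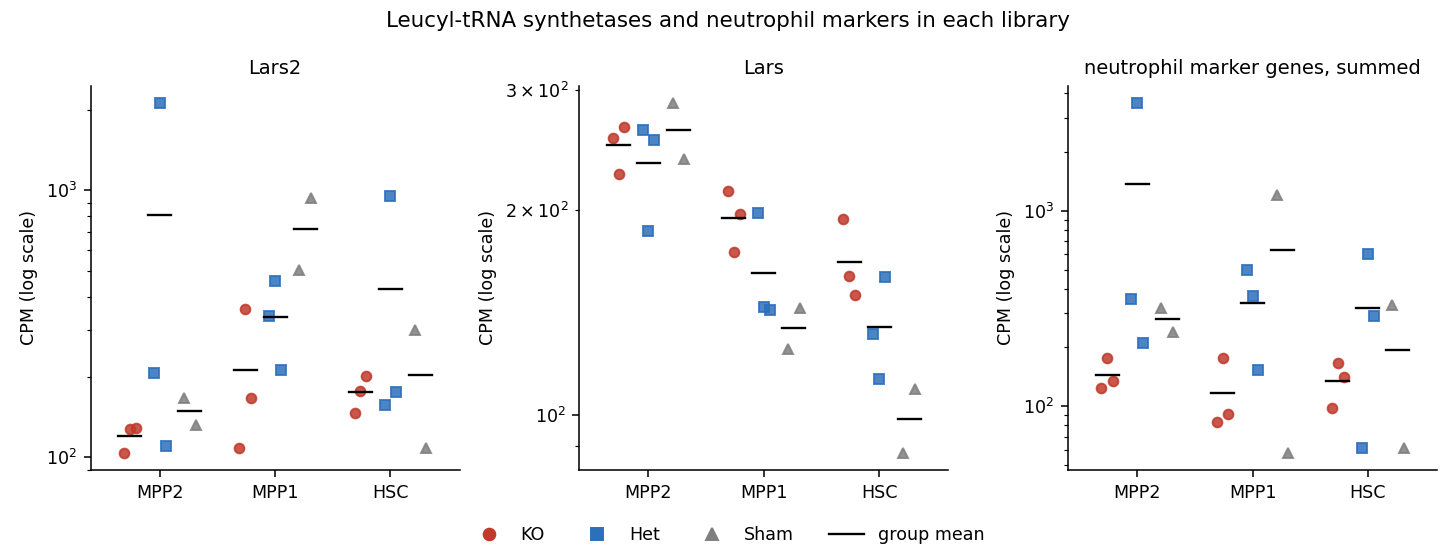
CPM on a log axis (y axis) of Lars2, of Lars and of the sum of 13 neutrophil markers in each library, with MPP2, MPP1 and HSC on the x axis, KO libraries as red circles, Het libraries as blue squares Sham libraries as grey triangles and bars at the group means. Lars2 reaches 2119 CPM in 1 MPP2 Het library and the neutrophil sum reaches 3550 CPM in the same library, while Lars stays between 88.1 and 286 CPM.

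Some genes that work with the synthetases also passed in MPP2 against HSC. Their counts stand against 9.59% of all genes that rose and 8.37% that fell in Het mice (19.5% and 14.2% at a similar level), and against 3.39% and 2.65% of all genes in KO mice. A list of 6 genes held Aimp1, Aimp2 and Eef1e1, of the multisynthetase complex, and the elongation factor genes Eef1b2, Eef1d and Eef1g. Of these 6 genes 2 rose in Het mice, Eef1e1 (log2 change 0.85, adjusted p = 0.0113) and Aimp2 (0.85, adjusted p = 0.0334), while Aimp1 was at 0.19 (adjusted p = 0.539). In KO mice 0 of 6 passed in edgeR. Eef1g fell in KO against Sham in MPP2 (-0.81, adjusted p = 0.0103), where 0.14% of all genes fell. A further list of 6 genes held Dtd1, Dtd2, Aarsd1, Prorsd1, Pstk and Sepsecs, of which not all remove wrongly attached amino acids. Of these only Aarsd1 rose, by 0.94 in Het mice (adjusted p = 0.000277) and by 0.76 in KO mice (adjusted p = 0.00869). Of 20 tRNA maturation genes 6 rose and 2 fell in Het mice, among them Trnt1, which adds the CCA end, at 0.66 (adjusted p = 0.00391), and the tRNA 3′ nuclease gene Elac1 at -1.05 (adjusted p = 7.24e-05).

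Of 24 tRNA modification genes 6 rose in Het mice, close to the 19.5% of genes at a similar level, with Trmt6, a methyltransferase gene, at 0.77 (adjusted p = 0.000452). Of 13 genes for mitochondrial tRNA handling 0 passed in edgeR in Het mice, with 4 at an unadjusted p under 0.05. Of 29 genes of the amino acid response 10 rose and 3 fell in Het mice. Asns, the asparagine synthetase gene, averaged 58.9 CPM in MPP2 Het libraries and 21.0 CPM in HSC Het libraries (log2 change 1.49, adjusted p = 0.000312), and Atf4 changed by 0.43 (adjusted p = 0.0369). The stress genes Nupr1 (-2.46, adjusted p = 1.2e-05) and Trib3 (-4.95, adjusted p = 0.000549), which belong to the same list, fell.

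Of 14 genes for stress kinases and their partners 3 rose and 4 fell in Het mice. Of all genes 9.59% rose and 8.37% fell there (19.5% and 14.2% at a similar level). The sestrin genes Sesn3 (-1.49, adjusted p = 1.11e-05) and Sesn1 (-0.94, adjusted p = 0.00013) were among those that fell. In KO mice the amino acid response list had 3 genes that rose, Psat1 (0.74, adjusted p = 0.027), Atf4 (0.52, adjusted p = 0.0318) and Phgdh (0.55, adjusted p = 0.0403), and Nupr1 fell. In KO against Het none of the genes of these lists passed in edgeR in any population. Atf4 differed by 0.08 and Asns by -0.11 on the log2 scale in HSC. The values were 0.18 and -0.49 in MPP1, and 0.17 and -0.81 in MPP2 (adjusted p = 0.407 for Asns in MPP2). Asns was at -1.15 in KO against Sham in MPP2 (adjusted p = 0.0747). In KO against Sham in HSC, where 2 synthetase genes rose, Aarsd1 (0.99, adjusted p = 0.00963) and the serine synthesis gene Psat1 (1.15, adjusted p = 0.00963) also rose, as did Cebpg (0.74, adjusted p = 0.021) and the mitochondrial translation factor gene Tsfm (1.57, adjusted p = 0.0111), while Sesn3 fell (-0.98, adjusted p = 0.0222). In that comparison 0.382% of all genes fell. These 5 were all the genes of the lists above that passed there.

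Proliferation genes and cell type markers also differed between the populations and genotypes. Of 16 proliferation genes 15 rose in MPP2 against HSC in Het mice, with a median log2 change of 2.21, and 7 rose in KO mice. In KO against Het in HSC 3 of 16 rose, Mcm2 (0.88), Cdc20 (1.40) and Mcm3 (0.75), with a median of 1.27. Their summed CPM was 5415, 4042 and 2723 in HSC KO libraries and 3280, 1611 and 1588 in HSC Het libraries. HSC KO 1, with the highest sum, was also the highest HSC KO library for 27 of 35 synthetase genes. In MPP2 the order of genotypes was not the same. The summed proliferation CPM was 8757 ± 804 in KO, 7875 ± 817 in Het and 7877 ± 264 in Sham libraries, while the cytosolic synthetase sum was highest in Sham. The part of proliferation in the synthetase values was not tested.

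The 20 cytosolic synthetase genes summed to 3971 ± 266 CPM in MPP2 KO, 3548 ± 383 CPM in MPP2 Het and 4254 ± 507 CPM in MPP2 Sham libraries (SD, n = 3, 3 and 2). In HSC the sums were 2860 ± 365 CPM in KO, 2329 ± 215 CPM in Het and 2022 ± 136 CPM in Sham libraries. MPP1 had 3127 ± 422 CPM in KO, 2646 ± 326 CPM in Het and 2381 ± 34.8 CPM in Sham libraries. The 14 mitochondrial genes without Lars2 summed to 592.2 ± 48.5 CPM in MPP2 KO, 544 ± 26.6 CPM in MPP2 Het and 663.4 ± 101 CPM in MPP2 Sham libraries, against 454.5 ± 44.1, 407.8 ± 31.5 and 372.4 ± 26.7 CPM in HSC KO, Het and Sham libraries. Both sums were highest in MPP2 within each genotype.

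**Figure D5:**
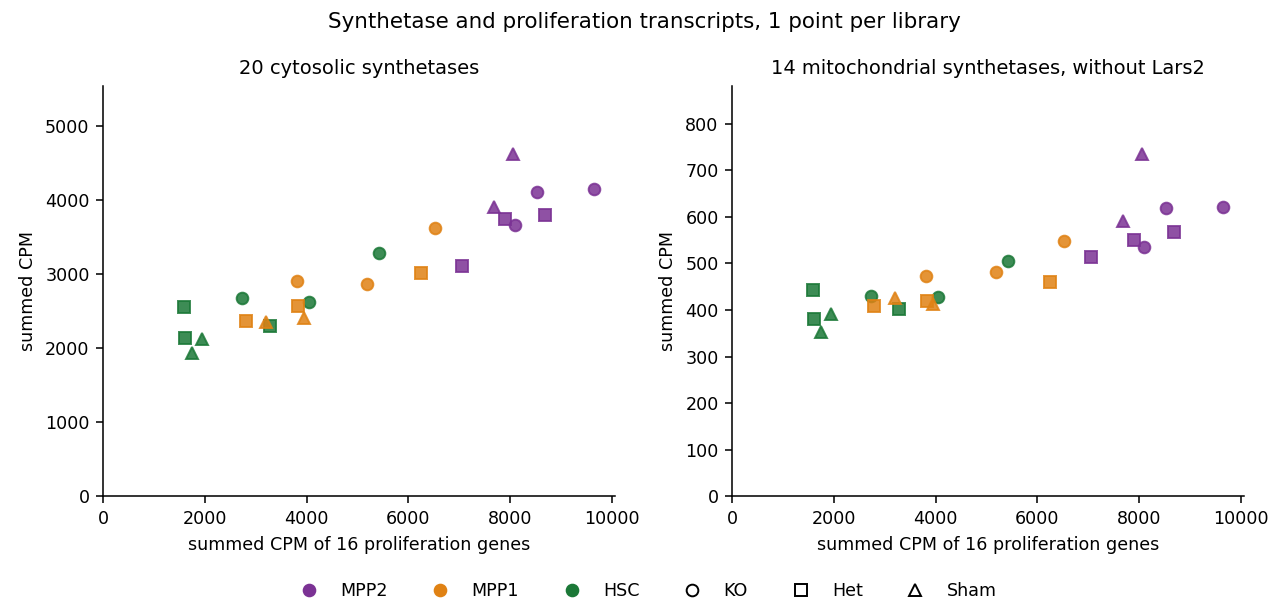
Summed CPM of 20 cytosolic synthetase genes (left, y axis) and of 14 mitochondrial ones without Lars2 (right, y axis) against the summed CPM of 16 proliferation genes (x axis), with 1 point for each library, coloured by population and shaped by genotype. MPP2 libraries lie at 7049 to 9651 CPM of proliferation genes and include the highest sum of each panel, and HSC libraries lie at 1588 to 5415 CPM.

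Of 8 stem cell markers 8 fell in MPP2 against HSC in Het mice and 7 fell in KO mice, and their sum was 181 to 360 CPM in MPP2 and 838 to 1506 CPM in HSC libraries. Among genes of the sort markers, Ly6a (log2 change -3.185, adjusted p = 5.85e-06), Kit (-0.68, adjusted p = 0.000521) and Slamf1, the gene of CD150 (-0.88, adjusted p = 0.00294), fell in Het mice. Cd48 rose there (3.58, adjusted p = 0.00721). Of 11 erythroid markers 7 passed the filter on low counts, of which 2 rose in Het mice and 3 in KO mice. Their sum was 198 to 371 CPM in MPP2 KO, 460 to 713 CPM in MPP2 Het and 506 to 1142 CPM in MPP2 Sham libraries, and the globin genes Hba-a1, Hba-a2 and Hbb-b2 had no count in any library. Of 8 megakaryocyte markers 3 rose in MPP2 against HSC in Het mice and 1, Gp5, in KO against Het in HSC. The megakaryocyte sum was 1170 to 1601 CPM in HSC KO, 425 to 720 CPM in HSC Het and 467 to 533 CPM in HSC Sham libraries. The part of other cell types in the synthetase differences was not tested.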

How the data were processed

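The authors deposited raw counts per gene for each library and a table of a normalized signal for 12186 genes, whose scaling is not given in the sources used here. The submitters' processing notes name the mm9 build. For tools they name featureCounts, TopHat2 2.0.9 with Bowtie 1.0.0, Trimmomatic 0.33, FastQC, and R 3.1.2 with edgeR. The libraries were made with a stranded kit after rRNA depletion, per the labels' protocols.

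Tests used edgeR 4.0.16 under R 4.3.3 on these counts. Genes were kept by filterByExpr with a least count of 10, libraries were scaled by TMM, and 1 robust quasi-likelihood model with a mean for each of 9 groups was fitted to all 24 libraries, with 15 residual degrees of freedom. Each contrast was a two-sided F test adjusted by Benjamini-Hochberg over 21456 genes, with a threshold of 0.05. CPM values use the TMM library sizes. The SE of a log2 change is approximate, from the change and its F statistic (change over root F). The fit was run on simulated counts of independent libraries, with the same spread for all genes and changes placed in well-counted genes alone. That run does not show how the tests behave for low members or for samples that deviate together. Depth per library, 18823971 to 53196624 counts, limits the precision of low members. Counting error of a single library is part of the spread shown, and no 2 libraries were duplicates.

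The members, gene lists and tests were chosen with earlier results of these data known. Members past the threshold were named, up to 4 per direction and compartment by adjusted p, or the 2 with the smallest p where none passed, and from each gene list up to 3 genes that passed. Asparagine synthetase, Atf4, Aimp1 and genes named outside this rule were chosen after their values were seen.

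Replicates are numbered 1, 2_3 and 4 in the labels, and Sham has no number 1. Samples with the same number deviated together in MPP2 against HSC in Het mice (r = 0.222 to 0.382) and in all comparisons of populations in KO mice (0.229 to 0.764), where the number was taken to pair the samples. The main model held no term for the number, so its tests treat these samples as unpaired. In KO against Het the correlations ran from -0.178 to 0.447 and the numbers were not taken as pairs.

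Alternatives were RLE scaling, no filter on low counts, DESeq2 1.42.0, limma 3.58.1 on log2 of the deposited signal with a pseudocount of 1, the number as a block, and each library left out in turn. Positions are from mm9 with a GENCODE annotation, and promoters from RefSeq on GRCm38.p6. No coordinates were converted between builds. Every column of per-sample values was used.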

Additional observations from a re-analysis of the deposited data

How the results depend on the processing

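The count of members past the threshold in MPP2 against HSC in Het mice kept within 20 to 22 under the other scaling, filter, tool and table, and was 15 to 20 with single libraries left out. Counts that moved by over 1.5 times are given next. With DESeq2 they were 1 in KO against Het in HSC, 7 in KO against Sham in HSC, 2 in MPP1 against HSC in Het, 12 in MPP2 against MPP1 in Het, 16 in MPP2 against HSC in KO, 2 in MPP2 against MPP1 in KO, and 1 in each of the differences from Sham, KO and Het, of MPP2 minus HSC. With the replicate number as a block they were 2 in KO against Het in HSC (one was Aars, adjusted p = 0.00805), 1 in MPP1 against HSC in Het, 13 in MPP2 against MPP1 in Het, 16 in MPP2 against HSC in KO, 1 in MPP2 against MPP1 in KO and 3 in the KO and Sham difference. In KO against Het (r = -0.178 to 0.447) the numbers were not taken as pairs. Nor were they in MPP1 comparisons of Het mice (r = 0.0255 to 0.327). Whether they pair the samples there is undecided. With the deposited table they were 1 in KO against Het in HSC, 1 in MPP1 against HSC in Het and 3 in MPP2 against MPP1 in Het. Without the filter KO against Sham in HSC had 0. With single libraries left out the counts ran from 0 to 1 in KO against Het in HSC, 0 to 3 in KO against Sham in HSC, 0 to 14 in MPP2 against HSC in KO and 0 to 13 in MPP2 against MPP1 in Het. Where this leaves 1 Sham library, it is assumed to vary like the other groups. The cause of these moves was not tested. No member changed direction past a threshold. Of the single-member results tried, 919 stayed on their side of the threshold with the same direction, 22 passed only under the alternative and 43 passed only before it.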

Other observations

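Across the 24 libraries the gene whose log2 CPM was most like that of Lars2 was Mir5109, with r = 0.89 over 24 libraries, followed by Olfr822 at 0.77. These genes were picked after their values were seen and the correlations are given as a description only, since the libraries fall into 9 groups and share depth and preparation. Mir5109 was at 499 CPM in MPP2 Het 2_3, 136 CPM in HSC Het 2_3 and 180 CPM in MPP1 Sham 4, and at 21.5 to 111 CPM in the other 21 libraries. Lars2 was at 2119, 951 and 934 CPM in those 3 libraries and at 104 to 504 CPM in the others. The tagwise dispersion of Lars2 was 0.512, and no other member exceeded 0.111.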
